A study of Mus musculus with 2 samples.

Results

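AngII-treated young vascular smooth muscle cells (VSMCs) were compared directly with old VSMCs over all genes, to ask where 48 h of angiotensin II brings young cells to the level of old ones and where it does not. The comparison held 1997 of the 13045 cells of 1 droplet single-cell library: 1500 cells of tag 3 (young + AngII) and 497 cells of tag 2 (old). Barcodes with 2218 or more gene UMIs (unique molecular identifiers, each counting 1 RNA molecule) and 200 or more genes were taken as cells, and a cell was given a tag when the antibody barcode of that tag alone lay above its cutoff, which was 52 UMIs for tag 2 and 61 for tag 3. The library pooled 4 cultures of primary aortic VSMCs from C57BL/6 mice, used within a few passages: young cells (mice of 12 weeks; tag 1, 3144 cells), old cells (mice of 58 to 78 weeks; tag 2), young cells given 100 nM AngII for 48 h (tag 3), and old cells transfected with Piezo1 siRNA (tag 4, 1529 cells). The study bought young and old lots from 2 suppliers and does not state which entered this library, so age cannot be told apart from lot and donor. Whether the old control received the non-targeting siRNA pool is not stated for this library. Groups were named from the numbers beside them in the study's schematic. Nothing there calls these numbers tags, which is why each name carries its tag here. Each group was 1 culture. No test between groups was therefore made, and every interval below is a 95% interval for counting error alone, not for the spread between cultures.

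VSMCs of the healthy aorta carry a contractile apparatus of smooth muscle actin, myosin and their binding proteins, and in culture or injury they lose it and make more matrix, growth factors and cytokines. Angiotensin II is the effector peptide of the renin-angiotensin system. It acts on smooth muscle mainly through the AT1 receptor and Gq/11 proteins, which release calcium and activate RhoA, NADPH oxidase and growth factor signalling. It is used on cultured VSMCs as an inducer of premature senescence, a state of lasting growth arrest with secretion of cytokines and proteases.

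Tag 3 had a median of 9454 UMIs per cell and tag 2 a median of 10663. The tags separated weakly, with own-tag medians of 113 UMIs in tag 3 and 76 in tag 2 against 31 and 15 in the cells without a tag, which were 40.7% of all cells. Scrublet called 19.1% of tag 3 and 16.3% of tag 2 doublets, and these were kept. The cultures also differed in sex-linked transcripts: cells with transcripts of any of 4 Y-linked genes and no Xist were 55.5% of tag 3 and 19.5% of tag 2, and cells with Xist and no Y-linked transcript were 6.27% and 63.0%. Cells with both kinds were 10.6% and 8.85%, and with neither 27.6% and 8.65%. Donor sex is not stated for this library, so these are classes of detected transcripts. Mitochondrial transcripts made up a median of 0.224% of a cell's UMIs in tag 3 and 1.84% in tag 2, and 60.2% of tag 3 cells lay under 0.5% against 18.7% of tag 2 cells. Of the 9 VSMC markers, Tagln was at 957 CPM (a gene's UMIs per 1000000 UMIs of the tag's cells) in tag 2 and 698 in tag 3, whereas Myh11, the smooth muscle myosin heavy chain, was at only 7.89 and 1.94 CPM.

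Markers of other cell types were summed over 8 genes each. Macrophage markers summed to 17 CPM in tag 2 and 13.5 in tag 3; Tyrobp and C1qa had 0 UMIs in both tags, which allows up to 0.538 CPM in tag 2 and 0.201 in tag 3, while Cd14 was at 12 and 4.49. Endothelial markers summed to 16.1 and 10.6 CPM, with Tie1 at 0 UMIs in both, Cdh5 at 2 UMIs in each, and Egfl7 at 9.86 and 6.23 CPM. Fibroblast markers summed to 715 and 963 CPM and went both ways, with Dcn at 506 and 669, Dpt at 5.56 and 16.5, and Cd34 at 10.0 and 2.95. Epithelial markers summed to 55.8 and 112 CPM. Of the 4 with at least 100 UMIs in tags 2 and 3 together, 2 were at least 1.5-fold higher in tag 3, beside 9.80% of all such genes. These were Sbsn, at 13.3 and 58.9, and Perp, at 15.6 and 28.8. Krt19 and Upk1b did not reach 1.5-fold. Over the alternatives of processing their ratios ran from 0.593 to 2.42 and from 0.416 to 15.1. Epcam had 0 and 1 UMIs. The part of other cell types in the results was not tested.

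Over the 10214 genes with at least 100 UMIs in the pair of tags together, 1001 (9.80%) were at least 1.5-fold higher in AngII-treated young cells (tag 3) than in old cells (tag 2), and 811 (7.94%) were at least 1.5-fold lower. At least 2-fold, the counts were 455 (4.45%) and 321 (3.14%). For 2042 genes (20.0%) the whole interval of the ratio lay between 0.8 and its inverse, the range called near from here on. The median absolute log2 ratio was 0.24 and the median log2 ratio 0.03. Most measured genes thus lay under 1.5-fold apart. Counts of called genes in the lists below are to be read beside these all-gene shares of 9.80% higher and 7.94% lower. The 15 named genes furthest apart on each side, among those with a mean of at least 50 CPM in the pair of tags, are taken first, by what their products do.

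**Figure D1:**
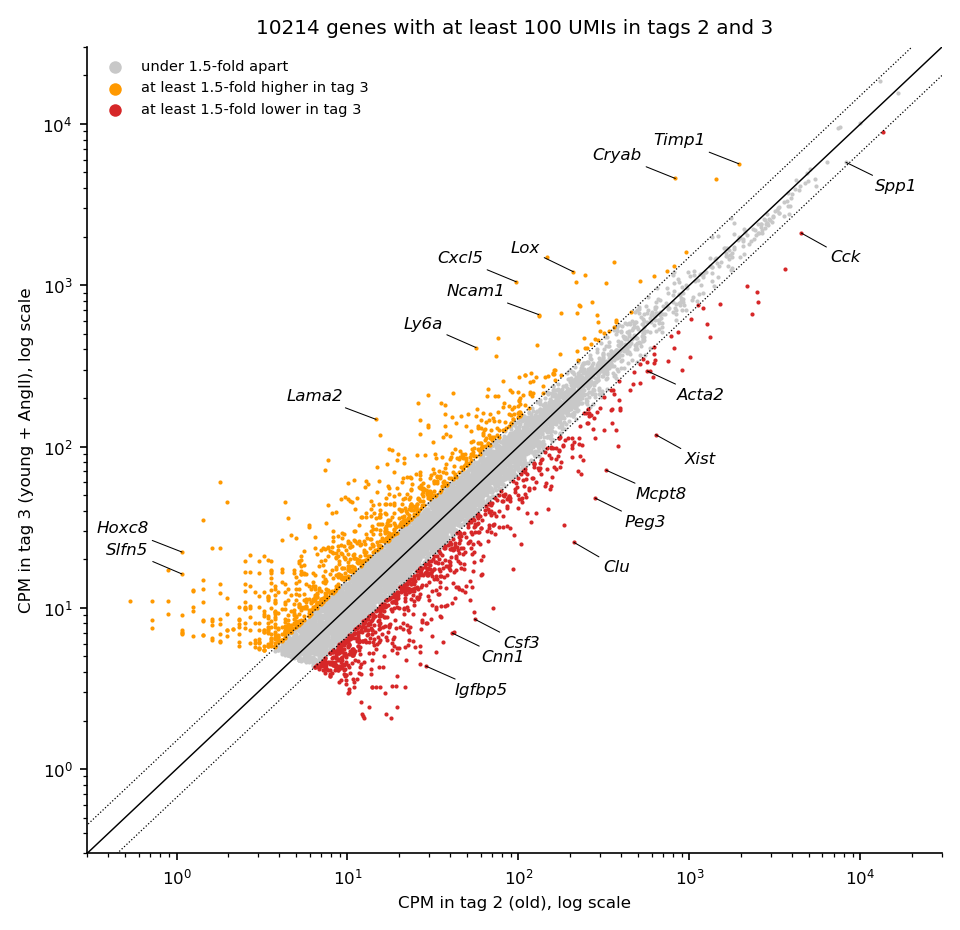
CPM in old cells (tag 2, horizontal, log scale) against AngII-treated young cells (tag 3, vertical, log scale), 1 point for each of the 10214 genes measured except 1 with no UMI in a tag; the solid line is equality and the dotted lines are 1.5-fold. Cxcl5 (97.2 and 1049.6 CPM) stands far above the line and Clu (211 and 25.4 CPM) far below it.

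Among the genes furthest above old cells were several secreted proteins. Cxcl5, a chemokine that attracts neutrophils (chromosome 5, 90759360 to 90761624, plus strand, GRCm38), was at 97.2 CPM (89.2 to 106) in old cells (tag 2), against 1049.6 (1033 to 1066) in treated young cells (tag 3), a ratio of 10.8 (9.91 to 11.8). Untreated young cells (tag 1) were at 1219 CPM, so the treated cells stood near the young culture and far from the old one. Serpinb2, the plasminogen activator inhibitor 2 (chromosome 1, 107511423 to 107535478, plus strand), was instead high in the treated cells alone. It was at 293 CPM in tag 1, 146 in tag 2, 1499.6 in tag 3 and 177 in tag 4, with a tag 3 to tag 2 ratio of 10.2 (9.56 to 11). Lox, the enzyme that crosslinks collagen and elastin, was at 1049, 209.6 and 1212 CPM in tags 1, 2 and 3. Ptx3, a pattern recognition protein of innate immunity, was at 314, 25.8 and 187 CPM. The basement membrane laminin chain Lama2 was at 96.4, 14.7 and 147 CPM, and the serine protease Prss23 at 551, 76 and 473. In all 5 of these genes other than Serpinb2, old cells were far below both young cultures.

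Surface proteins formed the next group. Ly6a, the stem cell antigen Sca-1 that marks modulated VSMCs, was at 1944 CPM in tag 1, 56.5 in tag 2 and 411 in tag 3, so that AngII-treated cells stood between the others, at 7.27 times old cells (6.49 to 8.17). The PACAP receptor Adcyap1r1 was at 84.1, 15.6 and 118 CPM and the AMPA receptor subunit Gria4 at 147, 35.1 and 187 in tags 1, 2 and 3. The adhesion molecule Ncam1 and the zinc receptor Gpr39 were highest in the treated cells. Ncam1 was at 264, 131 and 657 CPM and Gpr39 at 96.7, 41.6 and 215, which puts tag 3 5.00 and 5.18 times above tag 2. Inside the cell, the small heat shock protein Cryab was the most abundant of these genes, at 3029 CPM in tag 1, 827 in tag 2 and 4592 in tag 3, a ratio of 5.55 (5.39 to 5.72). The transcription factor Ebf1 was at 294, 29.8 and 209 CPM, and the interferon-induced Trim30a at 268, 17.6 and 96.4.

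The genes furthest below old cells were led by clusterin. Clu, a secreted chaperone (chromosome 14, 65968483 to 65981547), was at 211 CPM (199 to 223) in old cells (tag 2), against 25.4 (23 to 28.1) in treated young cells (tag 3), a ratio of 0.121 (0.107 to 0.135), beside 39.7 in untreated young cells (tag 1). Peg3, an imprinted zinc finger gene, was at 55.4, 281 and 47.9 CPM in tags 1, 2 and 3, and Gap43, a growth cone protein, at 38.6, 185 and 32.6. Mcpt8, a protease known from basophils, was at 54.9, 326 and 71.3 CPM, and the retinoic acid binding protein Crabp1 at 31, 92.5 and 17.3. The midkine gene Mdk, the phosphodiesterase gene Pde4b and the myelin proteolipid family gene Gpm6b had ratios of 0.285, 0.301 and 0.241. For each of these genes except Mcpt8 the treated cells lay below untreated young cells as well. Old cells and the treated cells thus stood on opposite sides of the young culture for Clu, Crabp1, Mdk, Pde4b and Gpm6b. Their tag 3 to tag 1 ratios ran from 0.382 to 0.734. For Peg3 and Gap43 the treated cells were only a little below the young culture. The tag 3 to tag 1 ratio was 0.864 (0.788 to 0.947) for Peg3 and 0.844 (0.755 to 0.943) for Gap43. Without the cells called doublets, the tag 3 to tag 2 ratio was 0.0615 for Clu, 0.0992 for Peg3 and 0.102 for Gap43. Other choices of cells brought the tags closer together. Over the alternatives of processing the ratio reached 0.499 for Clu, 0.458 for Peg3, 0.650 for Gap43 and 0.714 for Crabp1. Of the 13 genes of the mitochondrial genome, all 13 were at least 1.5-fold lower in tag 3, with a median log2 ratio of -1.52. These genes make up the mitochondrial share given above, so this is the same difference seen gene by gene.

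By a narrow rule, AngII-treated young cells were near old cells in some genes that set old apart from young. Only well-counted genes can have their whole interval in the near range. The number of such genes thus does not measure how often the treated cells reached the old level. Outside predicted genes, 6 genes were at least 2-fold higher in old (tag 2) than in young cells (tag 1), reached 50 CPM in a tag, and were near by the tag 3 to tag 2 interval. Ptgs2, the inducible cyclooxygenase COX-2 (chromosome 1, 150100031 to 150108227), was at 220.4 CPM in tag 1, 797 in tag 2 and 679.8 in tag 3, so that the treated cells were at 0.853 (0.823 to 0.883) of the old level. The adhesion molecule Alcam was at 102, 268 and 268 CPM, with a ratio interval of 0.945 to 1.06. The transcription factor Sox4 was at 235, 539.9 and 474 CPM, the calcium-binding alarmin S100a8 at 11.3, 68 and 72.4, the cornified envelope gene Crct1 at 86.2, 329 and 289.9, and the BCL2 family gene Bcl2l15 at 26.9, 119 and 116. In each of the 6 the old and treated cultures lay close together and well above the young one. The rule chose these genes for this pattern, so their values are a description. Among cells with own tag at least 3 times the next tag the ratio was 1.87 for S100a8, and among cells with only Y-linked transcripts it was 0.571 for Crct1.

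Another 7 genes met the same rule on the low side, of which 6 are given. Ly6e, an interferon-inducible surface protein, was at 698 CPM in tag 1, 111 in tag 2 (old) and 116 in tag 3 (treated). Psme2, a subunit of the proteasome activator PA28, was at 197, 72.8 and 75.8 CPM, and Tspo, the mitochondrial outer membrane translocator protein, at 632, 235 and 271. The lysosomal growth factor precursor Grn was at 252, 103 and 104 CPM. The caveolar protein Cavin3 and the guanine deaminase Gda were at 35.5 and 49.1 CPM in tag 2, and at 34.4 and 46.2 in tag 3. The old and treated cultures were within counting error of each other for Ly6e, Psme2, Grn, Cavin3 and Gda, and Tspo was 1.15 times (1.08 to 1.23) the old level.

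In other genes that set old apart, the AngII-treated cells were near the level of untreated young cells, though not always equal to it. The 8 genes furthest apart on each side, picked for a tag 3 to tag 1 interval in the same range, are a description as well. Cck, the peptide hormone cholecystokinin, was at 1719 CPM in tag 1, 4515 in tag 2 (old) and 2105 in tag 3 (treated), so that the treated cells were at 0.466 (0.459 to 0.474) of the old level. Serpine2, the protease inhibitor nexin-1, was at 88.8, 235 and 102 CPM. The transcription factor Mecom was at 81.5, 222 and 70.3 CPM, the neurite protein Nrn1 at 59.2, 231 and 67.6, and Lrig1, a brake on growth factor receptors, at 41.7, 105 and 45.5. Among genes low in old cells, Folh1, a folate hydrolase, was at 72.8, 7.35 and 71.2 CPM in tags 1, 2 and 3. Igfbp3, an IGF-binding protein, was at 63.7, 10.0 and 59.7 CPM, the latent TGF-beta anchor Lrrc32 at 97.7, 19.7 and 89.9, and the focal adhesion protein Tns1 at 174, 37.3 and 179.7. Mecom turned direction in 1 class of sex-linked transcripts: among cells with Xist and no Y-linked transcript in both tags its ratio was 1.15, against 0.316 over all cells.

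**Figure D2:**
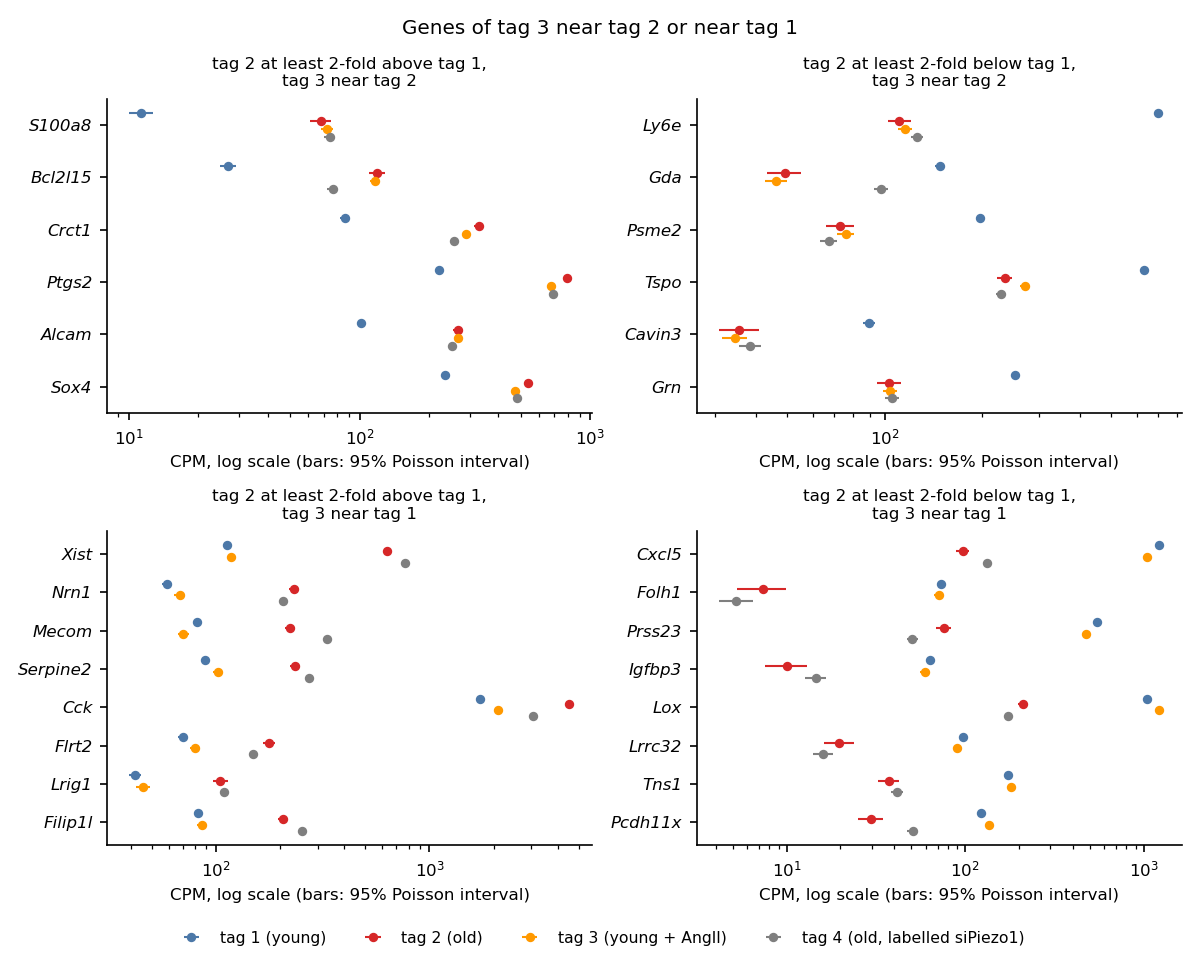
CPM (log scale, bars are 95% Poisson intervals) of genes at least 2-fold apart between old (tag 2) and young cells (tag 1) and near old cells (upper panels) or near young cells (lower panels) in AngII-treated cells (tag 3), with tag 4 shown as well. The point of tag 3 lies beside tag 2 for Ptgs2 (797 and 679.8 CPM) and beside tag 1 for Cxcl5 (1219 and 1049.6 CPM); genes were chosen for these positions.

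The contractile apparatus differed between the cultures. Of the 14 contractile genes, 11 were measured, and of these 0 were at least 1.5-fold higher and 5 at least 1.5-fold lower in AngII-treated cells (tag 3) than in old cells (tag 2). Over all measured genes 7.94% were that much lower. The list's median log2 ratio was -0.45 beside 0.03 over all genes. Acta2, smooth muscle alpha-actin, was at 568 CPM (549 to 589) in tag 2 and 294 (285 to 302) in tag 3, a ratio of 0.517 (0.493 to 0.541). Cnn1, the actin-binding calponin, was at 41.1 and 6.96 CPM, and Mylk, the myosin light chain kinase, at 12.2 and 2.21. The light chain Myl9 was at 95.2 and 52.1 CPM, and Tagln, the calponin-related transgelin, at 957 and 698, a ratio of 0.730 (0.706 to 0.754). Cald1, a caldesmon that non-muscle cells also make, went the other way without reaching 1.5-fold, at 1466 and 2030.3 CPM. The Acta2 gap between tags 2 and 3 differed between cell classes. In cells with no UMI of the 16 mitosis genes it was at 249.8 CPM (225 to 276) in 162 cells of tag 2. In 436 cells of tag 3 without such a UMI it was at 269 (252 to 286), an interval that overlapped that of tag 2. In cells with a UMI of these genes it was at 689.6 and 302 CPM, so the excess of tag 2 lay in the second class. In tag 4, the other old culture (Piezo1 siRNA), Acta2 was at 110 and 197 CPM in the first and second class, below tag 3 in both. In the first class Tagln was at 627 and 590 CPM and Myl9 at 70.3 and 63.1 in tags 2 and 3. In the second class they were further apart, Tagln at 1082 and 734 and Myl9 at 105 and 48.5. Tag 4 was below tag 3 in these as well, with Tagln at 251 and 494 CPM and Myl9 at 23.2 and 44.1 by class. Untreated young cells (tag 1) were at 391 and 372 CPM of Acta2 in the first and second class, and 394 and 424 of Tagln. In both classes treated cells thus lay below young cells for Acta2 and above them for Tagln. Tag 2 lay below young cells for Acta2 in the first class and above them in the second. Among cells with 1 to 10% mitochondrial UMIs the Acta2 ratio was 0.726, and the part of depth and of the cell cycle in it was not tested.

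The genes of the non-muscle cytoskeleton were listed apart. Of 16 measured genes 2 were at least 1.5-fold higher in AngII-treated cells (tag 3) and 0 lower, beside 17.7% of all measured genes 1.5-fold apart in either direction. The 2 were zyxin (Zyx), at 159.9 CPM in old cells (tag 2), against 285 in tag 3, and vinculin (Vcl), at 139 and 215, both proteins of focal adhesions. The gamma-actin Actg1 was at 1817 and 2069.6 CPM and the crosslinker alpha-actinin-1 (Actn1) at 491 and 704, a ratio of 1.43 (1.37 to 1.49). Tropomyosin 1 (Tpm1) and the myosin heavy chain Myh10 were on the low side, with ratios of 0.763 (0.746 to 0.781) and 0.696 (0.626 to 0.775). Among 11 regulators of the contractile programme, 9 were measured. Srf, the factor that drives it, was at 5.38 and 8.24 CPM, and Klf5 at 10.6 and 16.9, while Klf4, a factor of phenotypic switching, was at 71.5 and 81.7. Myocd, the coactivator of Srf, had 2 UMIs in tag 2 and 35 in tag 3.

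Force-sensing genes were read next. Piezo1, the stretch-activated calcium channel, was at 89.6 CPM (82 to 97.9) in old cells (tag 2), against 108 (103 to 114) in AngII-treated cells (tag 3), a ratio of 1.21 (1.09 to 1.34). Of the 20 channel genes listed, 14 were measured; 2 of them, Piezo2 (23.1 and 42.7 CPM) and the store calcium sensor Stim1 (43.7 and 85.2), were at least 1.5-fold higher, and the cation channel Trpc6 (9.86 and 5.09) was lower, beside 17.7% of all measured genes 1.5-fold apart in either direction. The 10 genes of the lamina and LINC complex list, which does not hold lamin B1, lay under 1.5-fold, Lmna among them at 270.4 and 290.4 CPM. YAP and TAZ are coactivators that carry force signals to TEAD factors. Of their 12 listed targets and partners, 3 were higher in tag 3 and 0 lower: the matricellular Ccn2 (CTGF), at 163 CPM in tag 1, 73.7 in tag 2 and 365 in tag 3, the ankyrin repeat protein Ankrd1, at 135, 109 and 278, and Amotl2, at 88.6 and 135 in tags 2 and 3. Yap1 itself was at 51.6 and 51.9 CPM. The list's median log2 ratio was 0.41, and 9.80% of all measured genes were at least 1.5-fold higher. Among cells with Xist and no Y-linked transcript the Ankrd1 ratio was 1.12 against 2.55 over all cells.

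The promoter of Ankrd1 is shown because the gene is among the YAP/TAZ targets highest over old cells and carries 2 copies of GGAATG, the core of the TEAD motif, in capitals; the window is the 250 bases before the start, chr19:36119845-36120094, minus strand, from RefSeq on GRCm38.p6.
Ankrd1: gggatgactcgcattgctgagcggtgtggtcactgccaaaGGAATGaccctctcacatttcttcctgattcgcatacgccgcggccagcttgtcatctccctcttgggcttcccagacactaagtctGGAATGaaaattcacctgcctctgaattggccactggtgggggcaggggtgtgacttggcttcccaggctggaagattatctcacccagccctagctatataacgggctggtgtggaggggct
The matches start 210 and 123 bases before the start site. Searched on both strands in the same 250-base windows, GGAATG was in 12.6% of all 32851 promoters and in 14.4% of the 27025 genes with a window. It was in 9 of the 10 listed YAP/TAZ genes with a window. A match in letters does not show that a factor binds there.

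The elastic fibre genes were among the higher groups. Of 15 listed, 13 were measured, with 7 at least 1.5-fold higher and 1 lower in AngII-treated cells (tag 3) than in old cells (tag 2). Over all measured genes these shares were 9.80% and 7.94%. The list's median log2 ratio was 0.71. Mfap5, a microfibril glycoprotein, was at 530.3 CPM in tag 1, 132 in tag 2 and 640.0 in tag 3, and Fbln2, a fibulin, at 942, 619 and 1139. The crosslinking enzyme Loxl3 was at 13.8 and 37.3 CPM in tags 2 and 3, and fibrillin-1 (Fbn1) at 99.2 and 162. The exception was the microfibril gene Mfap2, at 21.2 and 7.37 CPM. Elastin itself (Eln) had 0 UMIs in tag 2 and 1 in tag 3. Untreated young cells (tag 1) were at 316 CPM of Fbn1 and 59.9 of Loxl3, so for these 2 genes the treated cells stood between the old and young cultures, while for Mfap5 and Fbln2 they stood above both.

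Collagens, matricellular proteins and proteases were divided, with counts to be read beside 9.80% of all measured genes higher and 7.94% lower. Of 15 measured collagens, 4 were higher and 1 lower in AngII-treated cells (tag 3): Col1a1 was at 219 CPM in old cells (tag 2), against 389.7 in tag 3, Col5a3 at 4.12 and 17.5, and the lower one, Col6a3, at 11.8 and 5.69. Untreated young cells had more Col1a1 and Col3a1 than either, at 541 and 341 CPM, with Col3a1 at 54.3 in tag 2 and 76.3 in tag 3. Of 11 measured matricellular and proteoglycan genes 3 were higher and 2 lower. The lubricating proteoglycan Prg4 was at 12.6, 1.43 and 13.1 CPM in tags 1, 2 and 3, and the hyaluronan synthase Has2 at 10.6, 14.9 and 25.4. Thrombospondin-1 (Thbs1) was at 1762 and 2609 CPM, just under 1.5-fold, and Sparc at 817 and 1322. Tenascin C (Tnc), a protein of injured vessels, was lower in the treated cells, at 783 and 485 CPM. Of 17 measured proteases and inhibitors 5 were higher and 5 lower, Serpinb2 and Serpine2 among them. The aggrecanase Adamts5 was at 354 CPM in tag 1, 32.5 in tag 2 and 90.3 in tag 3, and urokinase (Plau) at 3.90, 19.9 and 5.62. Timp1 and Timp3, inhibitors of matrix metalloproteinases, were both higher in the treated cells, Timp1 at 1945 and 5663 CPM and Timp3 at 127 and 271.

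Of the 24 genes of the senescence-associated secretory phenotype, all measured, 8 were at least 1.5-fold higher in AngII-treated cells (tag 3), 8 lower and 8 neither. Over all measured genes 9.80% were higher and 7.94% lower. The list's median log2 ratio was -0.14. Cxcl5 and Igfbp3 were among the higher members. The macrophage growth factor Csf1 was at 685 CPM in tag 1, 323 in tag 2 (old) and 1035 in tag 3 (treated), and the chemokine Cxcl1 at 397, 128 and 425. Cxcl2, Mmp13 and Timp1 were also higher, with ratios of 1.90, 1.62 and 2.91. Csf1 was highest in the treated cells, while Cxcl1 was close to its young level.

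The 8 lower members included other secreted proteins. The granulocyte factor Csf3 was at 13 CPM in tag 1, 55.4 in tag 2 (old) and 8.50 in tag 3 (treated), and Igfbp5 at 2.49, 28.7 and 4.35. The prostaglandin E synthase Ptges, which works downstream of COX-2, was at 89.8, 318 and 127 CPM, so the treated cells were nearer to the young culture in Ptges and near the old culture in Ptgs2. The stromelysin Mmp10 was at 76.4, 394 and 167 CPM, and the hepatocyte growth factor Hgf at 15.3, 32.3 and 15.1. Ccl20, Areg and Igfbp4 had ratios of 0.442, 0.431 and 0.644. Il6 was at 102 CPM in tag 2 and 125 in tag 3. Ccl2, the most abundant chemokine of the list, was at 3564 and 2679. Mmp3 and the IL-33 receptor Il1rl1 had ratios of 1.13 (1.08 to 1.19) and 0.759 (0.709 to 0.813), which were 2.15 and 1.3 among the 1334 cells of tag 3 and 179 of tag 2 whose own tag was at least 3 times the next.

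Of 15 genes of D-type cyclins, cyclin-dependent kinase inhibitors and the p53 pathway, all measured, 1 was higher and 2 lower in AngII-treated cells (tag 3), a share near the 17.7% of all genes. Cdkn1a (p21) was at 678 CPM in old cells (tag 2), against 626 in tag 3, and Ccnd1 (cyclin D1) at 853 and 1090.4. Cdkn2a, the locus of p16 and p19ARF, and Cdkn1c (p57) were the lower ones. Cdkn2a was at 271 CPM in tag 1, 318 in tag 2 and 201 in tag 3, and Cdkn1c at 24.9, 8.79 and 5.29. Lmnb1 (lamin B1), whose loss marks senescent cells, was the higher one, at 49.6, 39.1 and 63.7 CPM. Of 16 mitosis genes, all measured, 9 were at least 1.5-fold lower and 0 higher, beside 7.94% of all measured genes lower. Their median log2 ratio was -0.66. Ccnb2 (cyclin B2) was at 22.6 and 9.71 CPM and the ubiquitin carrier Ube2c at 132 and 71, while the proliferation marker Mki67 was at 54.3 and 38.2, under 1.5-fold. Replication genes had a median log2 ratio of 0.30, with 2 of 15 higher and 0 lower, beside 9.80% of all measured genes higher. The mitosis list's median was 0.27 among cells with Xist and no Y-linked transcript, where Ube2c had a ratio of 1.23.

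Several immediate early genes, the first to answer a stimulus, were lower in the treated cells. Of 15 listed, 14 were measured, with 6 at least 1.5-fold lower and 1 higher in AngII-treated cells (tag 3), beside 7.94% and 9.80% of all measured genes. Jun was at 121 CPM in tag 1, 157 in tag 2 (old) and 65.2 in tag 3 (treated), and Fosb at 60.5, 48.1 and 18.7. Ier3, a survival factor, was at 279, 515 and 326 CPM. The exception was Egr2, with 5 UMIs in tag 2 (0.896 CPM) and 165 in tag 3 (11 CPM), a ratio of 12.3 (5.18 to 38.5).

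**Figure D3:**
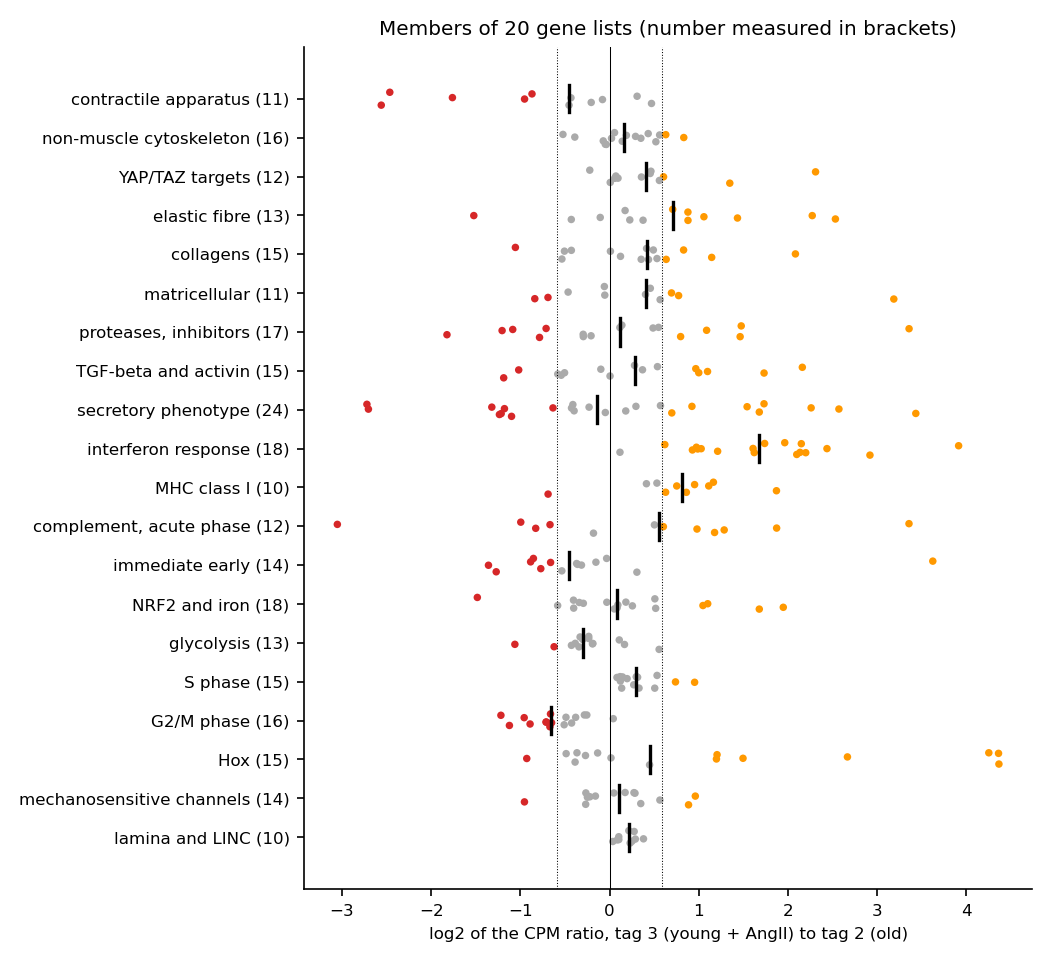
Log2 of the tag 3 (young + AngII) to tag 2 (old) CPM ratio of each measured member of 20 gene lists; a black bar is the list's median, the solid line is equality, dotted lines are 1.5-fold, and colours mark members past it. Interferon response genes lie furthest to the right (median 1.68), G2/M genes to the left (median -0.66), and secretory phenotype genes on both sides.

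The interferon response genes had the largest median of the 31 gene lists on the high side. Of 22 listed, 21 were in the file and 18 measured. Of these, 17 were at least 1.5-fold higher in AngII-treated cells (tag 3) than in old cells (tag 2), beside 9.80% of all measured genes. Lower members were 0, and the median log2 ratio was 1.68. The named members lay far below untreated young cells in both cultures. The ubiquitin-like Isg15 was at 889.7 CPM in tag 1, 36.9 in tag 2 and 158 in tag 3, and Ifit1, which binds foreign RNA, at 789, 17 and 78.2. Bst2 (tetherin), the most abundant, was at 1785, 241 and 474 CPM. Ifit2 was the member that did not pass, at 12.9 and 14 CPM. Among antigen presentation genes, 7 of 10 measured were higher and 1, the transactivator Nlrc5, lower: H2-K1 was at 854, 101 and 195 CPM in tags 1, 2 and 3, B2m at 2106, 796 and 1150.0, and Nlrc5 at 19, 9.50 and 5.89. Reads of the class I genes can be split between near-identical copies, so their levels are uncertain. With an assumed 5% of each tag's UMIs taken away as free RNA, in the profile of near-empty barcodes, the Ifit1 ratio went from 4.59 to 10.5.

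The promoters of Isg15 and Ifit1 are shown because both genes were far apart between the cultures and hold the motif of their pathway; each is the 250 bases before the start (RefSeq, GRCm38.p6), chr4:156200819-156201068 on the minus strand and chr19:34640639-34640888 on the plus strand. Capitals mark TTTC, any 2 bases and TTTC, the core of the interferon-stimulated response element, on either strand.
Isg15: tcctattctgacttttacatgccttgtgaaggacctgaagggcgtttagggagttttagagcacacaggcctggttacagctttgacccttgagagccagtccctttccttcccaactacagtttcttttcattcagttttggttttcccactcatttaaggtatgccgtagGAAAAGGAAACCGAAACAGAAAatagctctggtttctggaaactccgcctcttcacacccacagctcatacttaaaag
Ifit1: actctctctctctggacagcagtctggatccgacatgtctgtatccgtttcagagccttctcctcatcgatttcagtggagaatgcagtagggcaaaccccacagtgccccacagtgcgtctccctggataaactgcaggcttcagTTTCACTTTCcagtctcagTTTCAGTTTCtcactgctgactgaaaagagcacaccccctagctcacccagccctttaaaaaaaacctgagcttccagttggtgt
Isg15 has 3 matches on the opposite strand that overlap each other, and Ifit1 has 2 separate ones, 104 and 85 bases before the start. The motif was in 2.98% of all 32851 windows of this length and in 3.46% of the 27025 genes with a window. It was in 11 of the 17 listed interferon genes with a window, Ifit3, Rsad2 and Stat2 among them. These are matches of letters and say nothing of binding.

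Complement and acute phase genes were split. Of 12 measured, 6 were higher and 4 lower in AngII-treated cells (tag 3), beside 9.80% and 7.94% of all measured genes. The C1 inhibitor Serping1 was at 291 CPM in tag 1, 42.7 in tag 2 (old) and 96.5 in tag 3 (treated), and the complement protease C1s1 at 42.3, 11.1 and 40.7. The iron-binding lipocalin Lcn2 was lower in the treated cells, at 701, 809.5 and 406 CPM, as was the protease inhibitor Slpi, at 32.5, 87.9 and 49.5. Saa3 (serum amyloid A3) was at 823 in tag 2 and 726 in tag 3. In the antioxidant and iron list, 4 of 18 were higher and 1 lower, beside the same shares of all measured genes. The metallothioneins Mt1 and Mt2 were at 1426 and 361 CPM in tag 2 and 4566 and 1392 in tag 3, and the cystine carrier Slc7a11 was at 34.2 and 12.3. Heme oxygenase 1 (Hmox1) was near by the interval, at 299 and 310.0 CPM, with 152 in tag 1. Of 13 measured glycolysis genes 2 were lower and 0 higher, beside 17.7% of all measured genes apart in either direction. The glucose carrier Slc2a1 was among the lower ones, at 86.2 and 41.3 CPM.

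Within TGF-beta and activin signalling, 5 of 15 measured genes were higher and 2 lower in AngII-treated cells (tag 3). Counts here and for growth factors below are to be read beside 9.80% of all measured genes higher and 7.94% lower. The activin subunit Inhba was at 208 CPM in tag 1, 227 in tag 2 (old) and 755 in tag 3 (treated), a tag 3 to tag 2 ratio of 3.32 (3.13 to 3.52). Its antagonist follistatin (Fst) went the other way, at 187, 451 and 223 CPM. The BMP antagonist Grem1 was at 279.8, 611 and 268 CPM. The inhibitory Smad7, itself a TGF-beta target, was at 83.4, 76.4 and 164 CPM, while the ligand Tgfb1 was at 32.1 and 41.5 in tags 2 and 3. Among growth factors and receptors 3 of 15 measured were higher and 1 lower: Fgf2 was at 70.8 and 149 CPM, the EGF receptor ligand Hbegf at 91.6 and 170.3, Pdgfa at 59.3 and 104, and Igf2r at 79.6 and 45.7.

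Within the angiotensin pathway itself, the receptor genes were low. The AT1 receptor genes were barely detected, with 2 UMIs of Agtr1a in AngII-treated cells (tag 3) and 0 in old cells (tag 2), and 44 and 5 UMIs of Agtr1b. These are raw counts, from 14933669 gene UMIs in tag 3 and 5577355 in tag 2. Agtr2, the AT2 receptor gene, had 32 UMIs in tag 2 (5.74 CPM) and 8 in tag 3 (0.536 CPM). Of the 18 listed genes 9 were measured, with 1 higher and 3 lower, beside 9.80% and 7.94% of all measured genes. Nox4, an NADPH oxidase, was the higher one, at 34.9 CPM in tag 1, 20.6 in tag 2 and 39.6 in tag 3. The 3 lower ones belong to the RGS family of brakes on G protein signalling: Rgs2 at 19.4 and 12.6 CPM, Rgs5 at 10.2 and 5.96, and Rgs16 at 41.6 and 22.9. The Gq protein gene Gnaq was near by the interval, at 137 and 152 CPM. Rgs5 turned to a ratio of 1.19 in cells with no mitosis UMI and 1.79 in cells with Xist and no Y-linked transcript.

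Markers of other VSMC states were mixed. Spp1 (osteopontin), the most abundant of the bone programme, was at 3418 CPM in tag 1, 8229 in tag 2 (old) and 5782 in tag 3 (treated), so the treated cells lay between the other cultures. Mgp, an inhibitor of calcification, was at 1553, 1163 and 1009.8 CPM, and Sox9, a cartilage factor, at 68.6, 32.3 and 61.2. Of the 16 genes of that programme only 7 were measured, and Ibsp, Acan and Chad had 0 UMIs in both tags. Of the 8 measured genes called macrophage-like in VSMCs 2 were higher and 3 lower, beside 9.80% and 7.94% of all measured genes. Vcam1, an adhesion molecule for leukocytes, was at 358, 586 and 295 CPM, and the cholesterol exporter Abca1 at 45.9, 47.5 and 21.7. The lipid carrier Apoe was at 20.9, 12.7 and 24.8 CPM. Cd44, the hyaluronan receptor, was at 399 in tag 2 and 514 in tag 3.

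Hox genes, which record position along the body, separated the cultures. Of 25 listed, 15 were measured, with 7 higher and 1 lower in AngII-treated cells (tag 3), beside 9.80% and 7.94% of all measured genes. Hoxc8 had 6 UMIs in old cells (tag 2; 1.08 CPM) and 331 in tag 3 (22.2 CPM), a ratio of 20.6 (9.37 to 56.5), and untreated young cells were at 17.4. Hoxc6 was at 22.9, 0.896 and 17.1 CPM in tags 1, 2 and 3, and Hoxc9 at 7.42, 0.538 and 11. Hoxa5, the most abundant, was at 101, 131 and 99.8. Tag 4, the other old culture, was also low, at 1.49 CPM of Hoxc8 and 1.30 of Hoxc6. Hoxc6 and Hoxc8 were thus higher in both young cultures and at under 2 CPM in both old ones.

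Since sex-linked transcripts differed, the leading genes were read again in cells with only Y-linked transcripts (97 of tag 2 and 833 of tag 3) and in cells with only Xist (313 and 94). In old cells (tag 2), Clu was at 153 CPM in Y-linked and 223 in Xist cells, and Cxcl5 at 70.6 and 94.7. In AngII-treated cells (tag 3) the classes stood further apart. Clu was at 10.3 CPM in Y-linked and 111 in Xist cells, Cxcl5 at 1145 and 466, and Mecom at 41.1 and 265. The Xist cells of tag 3 thus lay nearer to old cells than its Y-linked cells did for these 3 genes. Genes near old cells varied in this respect. Ptgs2 was at 870.1 and 815 CPM in tag 2 and 707 and 672 in tag 3, and Ly6e at 114 and 106 against 114 and 118. Crct1 stood apart between the classes, at 543 and 292 CPM in tag 2 and 310.3 and 217 in tag 3. Within Y-linked cells the tag 3 to tag 2 ratio was 16.2 for Cxcl5 and 0.0673 for Clu, and within Xist cells 4.93 and 0.499. The part of cells with a wrong tag in the Xist class of tag 3 was not tested.

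**Figure D4:**
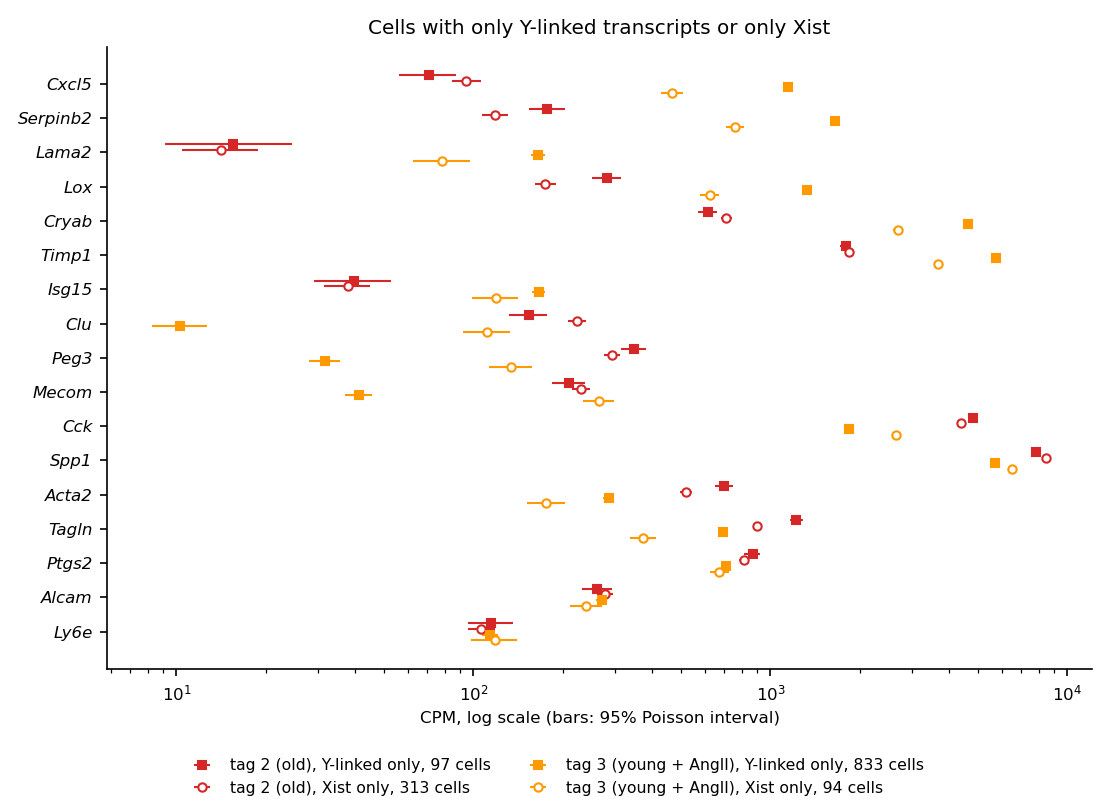
CPM (log scale, bars are 95% Poisson intervals) of 17 genes in cells with only Y-linked transcripts (squares) and only Xist (open circles) in old cells (tag 2) and AngII-treated young cells (tag 3). For Clu the 2 classes of tag 3 stand apart (10.3 and 111 CPM), while Ly6e is at 114, 106, 114 and 118 CPM in the 4 classes.

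The spread over single cells was read after thinning each cell to 5000 UMIs, which kept 1364 cells of tag 3 and 476 of tag 2 and left out 136 and 21. Serpinb2 was spread over many AngII-treated cells (tag 3): its median was 6 UMIs per cell with a 90th percentile of 17, against 0 and 2 in old cells (tag 2). Cryab had medians of 20 and 1, and Lox of 5 and 0. Cxcl5 was uneven in the treated cells, with a median of 1 and a 90th percentile of 17. Ptgs2 was broad in both, with medians of 2 in tag 3 and 3 in tag 2. Acta2 was uneven in both, with medians of 0 and 0 and the top 10% of cells holding 58.4% of its thinned UMIs in tag 3 and 69.2% in tag 2. A UMI of Acta2 was found in 42.8% of thinned tag 3 cells and 45% of tag 2 cells (53.5% and 54.5% before thinning), so the shares were close where the CPM was not. No cell type that should lack these genes was present to give a background share.

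**Figure D5:**
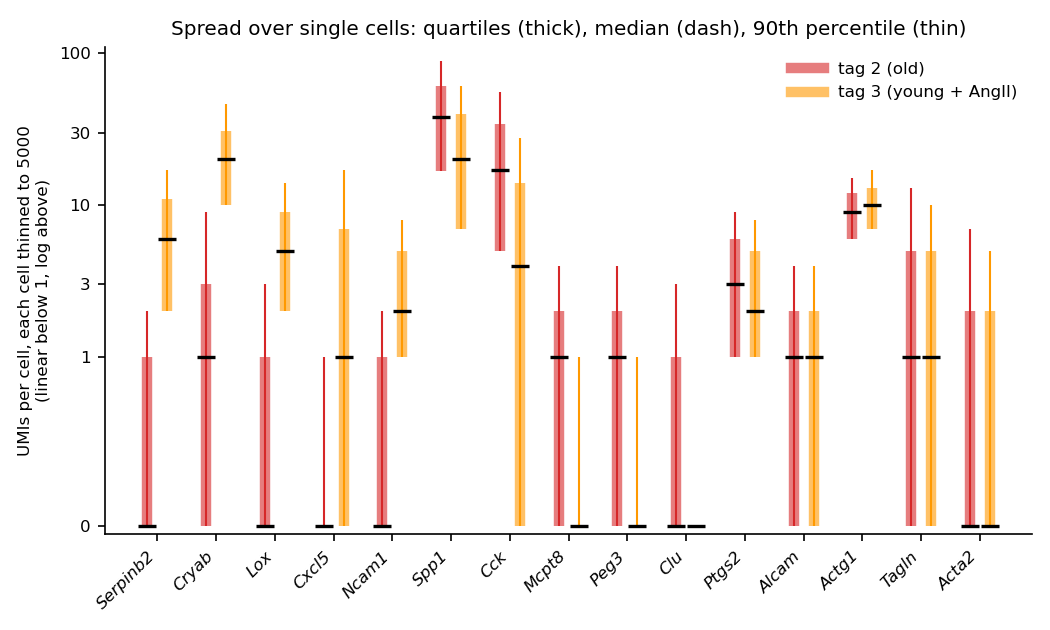
UMIs per cell (linear below 1, log above), each cell thinned to 5000 UMIs, of 15 genes in old cells (tag 2) and AngII-treated young cells (tag 3): thick bars span the quartiles, dashes are medians and thin lines reach the 90th percentile. Serpinb2 has medians of 0 and 6 UMIs, Alcam 1 and 1.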

How the data were processed

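The files were the unfiltered barcode matrix of 1 library (10x 3′ v3.1 chemistry, TotalSeq-A hashing antibodies) that the authors made with Cell Ranger 4; its values are UMI counts per gene and antibody tag as deposited, not normalized. The build of the authors' reference was not given in the sources used here; gene IDs were looked up in GENCODE vM21 (GRCm38) for positions. Cells and tags were set by the cutoffs given above, and cells with no or several tags were left out. UMIs were summed per tag and divided by the tag's total (5577355 UMIs in tag 2, 14933669 in tag 3), with exact Poisson intervals for CPM and exact binomial intervals for ratios (Python 3.11.15, scipy 1.17.1, numpy 2.4.6). A 2-fold or 1.5-fold call is a size, not a test, since cells of 1 culture are not replicates. Scrublet ran in scanpy 1.11.5 with an expected doublet rate of 0.1. The intervals and calls were run on simulated Poisson counts with 200 of 10214 genes changed 2-fold. There 95.6% of intervals held the true ratio, and 98% of changed and 0.749% of unchanged genes were called. These counts had no spread between cells or cultures beyond counting error, so the simulation says nothing of such spread. Named genes were the 15 highest and 15 lowest ratios above 50 CPM, the genes the study names, up to 8 near tag 2 or tag 1 on each side, and in each list the most abundant and the furthest apart; other list members were named after their values were seen. The members, lists and cutoffs were chosen with earlier results of these data known. There were 16 alternatives. Some named genes are not reported here.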

Additional observations from a re-analysis of the deposited data

How the results depend on the processing

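Each choice was changed alone in 16 alternatives. The 1001 higher and 811 lower genes became 245 and 239 in cells with Xist and no Y-linked transcript in both tags, with 94 and 313 cells. In these cells 5901 genes reached the floor instead of 10214, so the shares went from 9.80% and 7.94% to 4.15% and 4.05%. Of the called genes tested there, 144 of 356 higher and 144 of 433 lower were still called, and 10 and 47 turned direction. Among cells with 1 to 10% mitochondrial UMIs the lower genes were 456 of 7696 tested (5.93%). Of the 540 called lower genes tested there, 390 were still called. With at least 1 UMI the counts were 4812 and 4393 and the median absolute log2 ratio 0.38, and with at least 500 UMIs they were 474 and 289, by the construction of the filter. Without the Scrublet doublets, 906 of the 928 higher and 674 of the 687 lower genes that were tested there were still called.

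Over all alternatives, 1020 of 3637 values of named and listed genes moved outside the counting interval of the reported ratio, 63 of 495 list medians moved, and 97 gene values crossed a ratio of 1, genes under 1.5-fold apart such as Il1rl1 included. Of the ratios of these genes that were at least 1.5-fold apart, 17 turned direction, Rgs5 in 2 alternatives. Among Xist cells these were Mecom (1.15), Bmp2 (1.02), Trpc6 (1.15), Rgs5 (1.79), Col11a1 (0.940), Col6a3 (1.33), Ccn4 (1.01), Psmb8 (0.906), Ube2c (1.23), Ccnb2 (1.22) and Cenpf (1.29), and the median log2 ratio of the mitosis list (0.27). Among Y-linked cells they were Uty (0.880) and Plk1 (1.09), and among cells with no mitosis UMI Acta2 (1.08), Actg2 (1.08), Rgs5 (1.19) and Cdc6 (0.972). Uty is among the 4 Y-linked genes by which the Y-linked cells were chosen, so its ratio there depends on that choice. The cause was not tested for the other genes. Over the alternatives the ratio ran from 0.338 to 1.08 for Acta2 and from 4.93 to 16.2 for Cxcl5. No paired analysis was possible because each group was 1 culture and no replicate numbers exist.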
